A study of Mus musculus with 6 samples.

Results

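The genes described here are the Zfp zinc finger genes that C2C12 cells expressed. Members were chosen by their GENCODE M21 symbol, Zfp followed by a number and at most 1 letter, and by a mean level over all 6 libraries of at least 2 CPM (reads of a gene per 1000000 reads counted in that library). Levels given by library below are CPM scaled by edgeR's TMM factors, which lay close to 1. Of 23154 genes in the count tables, 387 carried such a symbol and 296 of these reached 2 CPM. The threshold acted on the mean of both groups together and not on the difference between them. The members nearest the threshold were Zfp953 at 2.05 CPM and Zfp689 at 2.06 CPM inside it, and Zfp300 at 1.95 CPM and Zfp108 at 1.99 CPM outside it. Of the 296 members, 3 were below 2 CPM in 1 group only, in each case the HA-NUR77 group.

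C2C12 is an established mouse myoblast line, and the study profiled polyadenylated RNA from 2 stable C2C12 lines that carried a doxycycline-inducible pINDUCER20b construct. One line expressed HA-tagged NUR77, the nuclear receptor encoded by Nr4a1, and the other expressed GFP as the control. Both lines received 1 µg/mL doxycycline for 18 hours, and each group had 3 libraries. Each construct was present in 1 stable line, so a difference between the lines and an effect of the construct cannot be told apart. P-values measure the spread between these libraries, within 1 line per construct. No uninduced cells were among the samples.

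Most Zfp genes encode C2H2 proteins, in which cysteine and histidine residues hold a zinc ion and adjacent fingers read DNA bases in a row. Many also carry a KRAB box, which recruits the corepressor Trim28 and, through it, the histone methyltransferase Setdb1, and such KRAB zinc finger proteins are known for silencing transposable elements. The KRAB genes multiplied by tandem duplication, so that related copies lie side by side in chromosomal clusters. Other Zfp genes encode unrelated proteins with zinc fingers, among them RNA-binding proteins and developmental regulators.

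Libraries held 13906096 to 22821446 counted reads. Nr4a1 had 22.6, 19.4 and 25.5 CPM under the HA-NUR77 label and 19.4, 13.5 and 28.2 CPM under the GFP label, a log2 difference of 0.14 (standard error, SE, 0.24, adjusted p = 0.698). The groups overlapped, so the gene of the construct did not check the labels, and a group is called by its label throughout. The sources used here do not say whether reads from the construct could map to mouse Nr4a1. Of 4 myoblast markers, summing to 3782 to 4457 CPM in HA-NUR77 and 2562 to 3428 CPM in GFP (median log2 fold change 0.39), Cdh15 was higher and the others did not pass, with Myf5 at -0.23. Of the leukocyte list, which summed to 4.16 to 6.46 CPM in HA-NUR77 and 3.18 to 4.39 CPM in GFP, Ptprc stayed under 0.1 CPM in every library while Csf1r was higher (log2 fold change 1.71, adjusted p = 0.0443), at 1.35 CPM in HA-NUR77 and 0.426 CPM in GFP. Csf1r had only 2 to 10 reads per GFP library, and its call held in 2 of the 6 fits that left out 1 library. Of the epithelial list, Epcam and Krt18 had no read while Cdh1 was lower (log2 fold change -1.23, adjusted p = 0.0112), at 1.24 CPM in HA-NUR77 and 2.87 CPM in GFP. The 8 markers of myotubes, the fused differentiated state, summed to 13004 to 15629 CPM in HA-NUR77 and 8196 to 12015 CPM in GFP, and 2 of them, Myh3 and Myh8, were higher. With the replicate number as a block in the fit, 6 of these 8 were higher. In that fit 3 of the 4 myoblast markers were higher and Myf5 was lower. DESeq2 called 4 myotube and 3 myoblast markers higher and none lower. The fibroblast and mesenchymal markers summed to 637 to 794 CPM in HA-NUR77 and 483 to 532 CPM in GFP, with Thy1 at 0, and of the 4 tested 2 were higher and 1, Pdgfra, was lower. The part of these shifts in the results was not tested.

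To show what the genomic neighbourhood of these genes looks like, the 250 bases before the annotated start are printed for 5 members of the chromosome 13 cluster, all lower in HA-NUR77, and for a pair of neighbours on chromosome 17 that moved in opposite directions. They come from the RefSeq promoter table (build GRCm38.p6), which holds 246 of the 296 members and 14 of the 16 in that cluster. Each is written 5′ to 3′ on the strand of its gene, at chr13:67637782-67638031, minus strand (Zfp729a), chr13:67683513-67683762, minus strand (Zfp738), chr13:67729174-67729423, minus strand (Zfp65), chr13:67553153-67553402, minus strand (Zfp748), chr13:67268995-67269244, minus strand (Zfp458), chr17:21488738-21488987, plus strand (Zfp53) and chr17:21535289-21535538, plus strand (Zfp52). Capitals mark TGGGANNTGTAGTC, where N is any base, the stretch that all matched windows of this cluster share.
Zfp729a: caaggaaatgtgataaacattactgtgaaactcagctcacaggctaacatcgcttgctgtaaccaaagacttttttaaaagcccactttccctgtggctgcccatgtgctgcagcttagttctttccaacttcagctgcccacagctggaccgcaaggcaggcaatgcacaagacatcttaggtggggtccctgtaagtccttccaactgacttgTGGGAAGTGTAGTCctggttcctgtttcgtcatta
Zfp738: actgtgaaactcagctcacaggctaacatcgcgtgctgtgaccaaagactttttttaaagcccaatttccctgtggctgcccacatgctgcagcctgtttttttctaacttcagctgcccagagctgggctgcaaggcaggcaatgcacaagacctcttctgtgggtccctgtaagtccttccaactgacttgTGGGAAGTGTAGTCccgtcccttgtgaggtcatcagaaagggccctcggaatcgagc
Zfp65: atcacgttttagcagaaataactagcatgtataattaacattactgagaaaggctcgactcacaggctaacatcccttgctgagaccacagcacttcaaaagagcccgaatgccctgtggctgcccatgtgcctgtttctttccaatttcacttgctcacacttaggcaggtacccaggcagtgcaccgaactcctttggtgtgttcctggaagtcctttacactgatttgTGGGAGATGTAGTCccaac
Zfp748: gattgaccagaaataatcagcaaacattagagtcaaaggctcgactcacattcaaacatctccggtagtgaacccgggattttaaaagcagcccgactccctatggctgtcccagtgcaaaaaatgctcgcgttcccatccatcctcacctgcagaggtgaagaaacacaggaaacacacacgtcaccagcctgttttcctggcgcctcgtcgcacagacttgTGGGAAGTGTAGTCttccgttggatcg
Zfp458: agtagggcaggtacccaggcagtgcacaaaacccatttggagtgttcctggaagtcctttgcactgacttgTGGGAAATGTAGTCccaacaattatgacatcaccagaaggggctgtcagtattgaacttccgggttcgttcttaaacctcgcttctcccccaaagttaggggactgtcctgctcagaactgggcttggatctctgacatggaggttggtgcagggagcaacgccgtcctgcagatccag
Zfp53: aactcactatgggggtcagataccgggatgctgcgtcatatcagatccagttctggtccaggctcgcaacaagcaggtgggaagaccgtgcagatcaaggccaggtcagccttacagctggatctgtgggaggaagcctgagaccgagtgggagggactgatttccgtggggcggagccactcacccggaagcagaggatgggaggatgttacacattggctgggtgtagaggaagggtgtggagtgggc
Zfp52: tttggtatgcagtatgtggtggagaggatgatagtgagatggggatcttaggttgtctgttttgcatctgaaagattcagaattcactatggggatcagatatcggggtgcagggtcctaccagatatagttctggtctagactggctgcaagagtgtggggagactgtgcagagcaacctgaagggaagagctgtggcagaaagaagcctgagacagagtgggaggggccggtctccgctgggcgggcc

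In local alignments, pairs among the 5 chromosome 13 windows ranged from 66.3% identity (Zfp748 and Zfp458) to 88.6% over 228 aligned bases (Zfp729a and Zfp738). The Zfp53 and Zfp52 windows, from neighbouring genes that moved apart, were 78.4% identical over 167 bases. Pairs between the chromosome 13 and chromosome 17 genes ranged from 56.5% to 69.1%, which overlaps the range within chromosome 13.

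Across the whole set, far fewer members were higher in HA-NUR77 than among all genes, and the members leaned lower. Of the 296 members, 54 were lower and 6 were higher at an adjusted p under 0.05 (edgeR quasi-likelihood test, Benjamini-Hochberg adjustment over all 12509 genes tested), and 236 did not pass. Among all genes tested, 13.2% were lower and 12.4% were higher, and among members 18.2% were lower and 2.03% higher. The median log2 fold change of the members, HA-NUR77 over GFP, was -0.21, against 0.01 for all genes, and 241 of 296 members had a negative value. In 98 members every HA-NUR77 library lay below every GFP library, and in 10 every one lay above, where 22.5% and 23.0% of all tested genes did so. With the replicate number as a block, 119 members were lower and 11 higher, when 24.6% of all genes were called lower and 23.5% higher. The share called lower depended on which libraries were in the fit. Leaving out GFP replicate 1, 2 or 3 in turn, 5.41%, 18.6% and 11.1% of members were lower, when 6.74%, 9.80% and 12.3% of all genes were. Leaving out HA-NUR77 replicate 1, 2 or 3, the shares were 7.77%, 9.46% and 13.2% of members against 7.16%, 11.3% and 9.83% of all genes. The members' share was thus under the background in 3 of the 6 fits, those lacking GFP replicate 1, GFP replicate 3 or HA-NUR77 replicate 2, and the lower count ran from 16 to 55. The share called higher was under the background in all 6 fits, between 1.01% and 2.36% of members, against 5.09%, 7.27% and 11.7% of all genes lacking GFP replicate 1, 2 or 3 and 5.33%, 9.96% and 8.21% lacking HA-NUR77 replicate 1, 2 or 3.

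Of the 54 lower members, 27 changed by less than 1.5-fold. Of all 296 members, 8 (2.70%) were called and 2-fold lower and none was called and 2-fold higher, where 3.69% and 2.16% of all genes tested were. Members took 0.707%, 0.655% and 0.725% of all counted reads in the HA-NUR77 libraries and 0.803%, 0.722% and 0.782% in the GFP libraries. The ranges overlapped, because GFP replicate 2 lay just below HA-NUR77 replicate 3. In bulk RNA, fewer cells that express a gene and less RNA per cell cannot be told apart. Of the 31 tested Zfp genes that lay below 2 CPM, 4 were lower and 1 was higher.

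**Figure D1:**
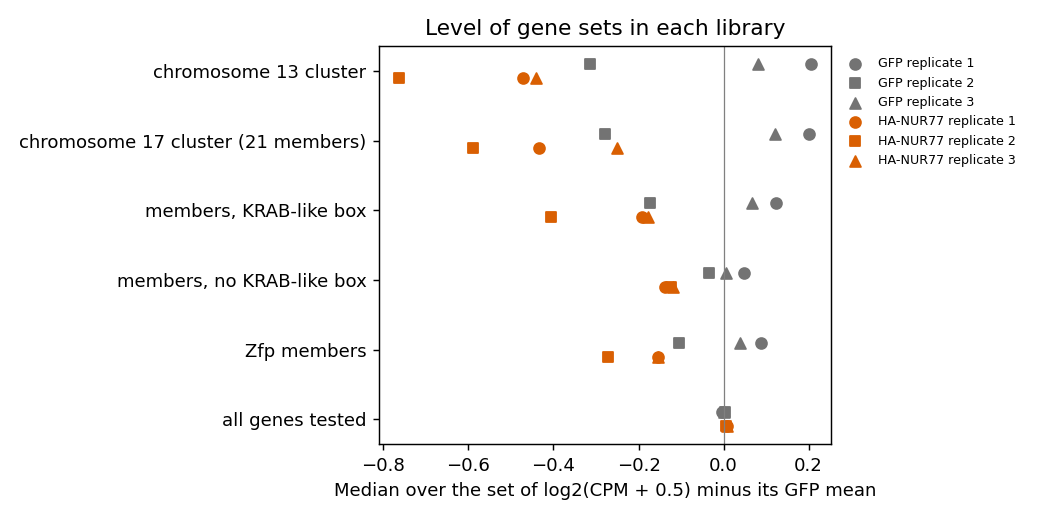
Median over each gene set of log2(CPM + 0.5) minus the gene's GFP mean, 1 point per library, for all 12509 genes tested, all 296 members, members with and without a KRAB-like stretch, the chromosome 13 cluster and the largest chromosome 17 cluster. In the chromosome 13 cluster the HA-NUR77 libraries sit at -0.47, -0.76 and -0.44, below the GFP libraries at 0.20, -0.31 and 0.08, and in that cluster replicate 2 is the lowest library of either group.

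Chromosome 13 held 26 members, with the lowest median of any chromosome that had at least 4 of them. Of these, 10 were lower (38.5%), none was higher and the median log2 fold change was -0.51, with 24 of 26 values negative. Only 24 of the 26 reached 2 CPM in both groups, and the rest were below it in HA-NUR77. At a mean of at least 5 CPM, 8 of 18 were lower, with a median of -0.52. In 15 of the 26 every HA-NUR77 library was below every GFP library. DESeq2 called 9 lower and none higher, and at an unadjusted p under 0.05 edgeR gave 13 lower and 1 higher. With the replicate block 17 were lower and 1, Zfp346, was higher (adjusted p = 0.00727). The lower count fell to 1 without GFP replicate 1, to 3 without HA-NUR77 replicate 1 or replicate 2 and to 5 without GFP replicate 3, while the median stayed between -0.63 and -0.37. The other 422 tested genes of chromosome 13 were also lower more often than the background of 13.2%, with 20.6% lower, 6.87% higher and a median of -0.14. In the fit of all 6 libraries the share of members, 38.5%, and that of the chromosome's other genes were both above the background. Their difference was not tested. Without GFP replicate 1 the members' share was 3.85%, under the 6.74% of all genes. Without HA-NUR77 replicate 2 it was 11.5%, against 11.3%. The other shares were 11.5% against 7.16% without HA-NUR77 replicate 1 and 19.2% against 12.3% without GFP replicate 3. Without GFP replicate 2 or HA-NUR77 replicate 3 they were 26.9%, against 9.8% and 9.83%.

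Of the 10 lower members of chromosome 13, 8 lay in 1 cluster of 16 members between 67038596 and 67755228 (GRCm38), and every one of the 16 encoded a KRAB-like stretch. Clusters were formed by joining members on a chromosome whose starts lay at most 1 Mb from the previous one, with at least 4 members. None was higher, also at an unadjusted p under 0.05 and in DESeq2, which called 7 lower. All 16 had a negative log2 fold change, from -1.21 to -0.30, with a median of -0.62, and in 12 of them the groups did not overlap. Zfp953 and Zfp429 were in the cluster close to the level threshold, at a mean of 2.05 and 2.12 CPM. The summed level of the 16 was 93.5, 71.1 and 98.6 CPM in HA-NUR77 and 169, 112 and 151 CPM in GFP. Every HA-NUR77 sum was thus below every GFP sum. With the replicate block 13 of the 16 (81.2%) were lower, against 24.6% of all genes. Without GFP replicate 1 only 1 (6.25%) was, against 6.74% of all genes.

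Zfp458 had the largest fall of the cluster, at 2.38, 1.70 and 1.94 CPM in HA-NUR77 and 4.57, 4.12 and 5.21 CPM in GFP. The groups were apart, although the values rest on 27 to 77 reads per library. Its log2 fold change was -1.21 (SE 0.20, adjusted p = 0.00551), and it stayed below the threshold in all 6 fits that left out 1 library. Zfp729a and Zfp729b are adjacent paralogs, and Zfp729a, at chromosome 13, 67612763 to 67637791 on the minus strand, had 10.3, 7.55 and 9.91 CPM in HA-NUR77 and 24.9, 13.5 and 20.2 CPM in GFP. It was 2.13-fold lower (log2 fold change -1.09, SE 0.23, adjusted p = 0.0148). Zfp729b had 9.10, 6.72 and 11 CPM in HA-NUR77 and 21.1, 12.4 and 19.1 CPM in GFP, a log2 fold change of -0.99 (adjusted p = 0.0232). In both, the lowest GFP value came from replicate 2 and still exceeded every HA-NUR77 value. Reads that fit both copies may have been assigned to either or dropped, so the split between such paralogs is uncertain.

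Zfp738 and Zfp65 lie next to each other farther along the cluster. Zfp738 had 6.36, 4.28 and 6.82 CPM in HA-NUR77 and 13.2, 8.10 and 14 CPM in GFP, with a log2 fold change of -1.03 (SE 0.25, adjusted p = 0.0240). Zfp65 had 5.38, 4.45 and 8.04 CPM in HA-NUR77 and 14.3, 8.51 and 14.2 CPM in GFP, with a log2 fold change of -1.07 (SE 0.27, adjusted p = 0.0266). In Zfp65 the gap between the groups was narrow, between HA-NUR77 replicate 3 and GFP replicate 2. Zfp748 fell less, from 16.1, 10.7 and 13.8 CPM in GFP to 9.67, 6.86 and 8.62 CPM in HA-NUR77 (log2 fold change -0.70, adjusted p = 0.0314). Zfp953, close to the level threshold, and Zfp87 were lower by -0.71 and -0.50 on the log2 scale (adjusted p = 0.0388 and 0.0377). Over the 6 fits that left out 1 library, Zfp729a passed in 5, Zfp729b, Zfp738 and Zfp65 in 2 each, and Zfp748, Zfp953 and Zfp87 in 1 each. Zfp953 also did not pass in DESeq2 (adjusted p = 0.0878), with the length and GC offset (0.0923), with that offset and the block (0.0540) or with no filter (0.0637). The other 8 members of the cluster did not pass, among them Zfp874b, the most abundant, at 14.2 CPM in HA-NUR77 and 17.4 CPM in GFP (a log2 change of -0.30, adjusted p = 0.133).

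Genes between the first and last member that were not members numbered 3 among those tested. Rsl1, a KRAB zinc finger gene, had a log2 fold change of -0.35 (adjusted p = 0.352). Zfp455 had -0.72 (adjusted p = 0.102) and Zfp456 had -0.42 (adjusted p = 0.204), and all 3 lay below 2 CPM. None passed the threshold, DESeq2 called none, and 1 was lower at an unadjusted p under 0.05. Outside the cluster, Zfp369 fell from 35.5, 28.7 and 33.6 CPM in GFP to 25.1, 23.0 and 23.5 CPM in HA-NUR77, with no overlap (log2 fold change -0.45, adjusted p = 0.0157). Zfp825 was lower by -0.54 (adjusted p = 0.0381). With the length and GC offset neither passed, Zfp369 at -0.28 (adjusted p = 0.0518) and Zfp825 at -0.56 (adjusted p = 0.0504), and Zfp825 did not pass with no filter (adjusted p = 0.0511). The 2 chromosome 13 members with positive values were Zfp346, which encodes a protein that binds double-stranded RNA, at 0.23 (adjusted p = 0.104) and Zfp367 at 0.12 (adjusted p = 0.632).

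**Figure D2:**
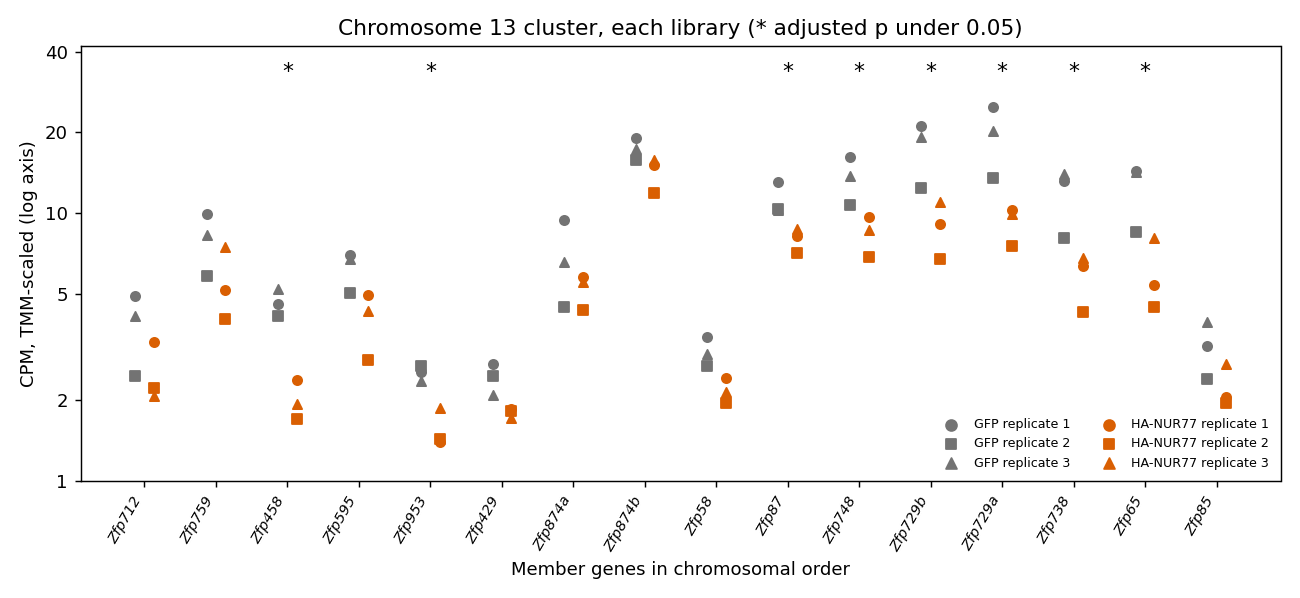
CPM (TMM-scaled, log axis) of the 16 members of the chromosome 13 cluster in chromosomal order, 1 point per library, with a star on the 8 past the threshold. The HA-NUR77 points lie below the GFP points without overlap in 12 of the 16 genes. Zfp874b has the highest mean over all 6 libraries, though not in GFP alone. Zfp729a lies at 7.55 to 10.3 CPM in HA-NUR77 and 13.5 to 24.9 CPM in GFP.

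Chromosome 17 held 41 members, of which 7 were lower and 2 higher, with a median log2 fold change of -0.35. Of its other tested genes 11.6% were lower, with a median of 0.04. Its largest cluster, from 21008903 to 23599487, had 21 members, 19 of them with a KRAB-like stretch, and 6 were lower, 1 was higher and the median was -0.40. With the block 15 of the 21 (71.4%) were lower, against 24.6% of all genes. The lower count was 1 (4.76%) when GFP replicate 1 or HA-NUR77 replicate 1 was left out, against 6.74% and 7.16% of all genes. It was 2 (9.52%) without GFP replicate 3 or HA-NUR77 replicate 2, against 12.3% and 11.3%. Without GFP replicate 2 it was 10 (47.6%, against 9.8%) and without HA-NUR77 replicate 3 it was 5 (23.8%, against 9.83%). The summed level of this cluster was 257, 203 and 259 CPM in HA-NUR77 and 336, 237 and 323 CPM in GFP, and here the groups overlapped, because GFP replicate 2 lay below 2 HA-NUR77 libraries.

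Within it, the neighbours Zfp53 and Zfp52 went in opposite directions. Zfp53, at 21488998 to 21510473, had 7.19, 6.07 and 5.46 CPM in HA-NUR77 and 12.9, 10.8 and 12.0 CPM in GFP. It was 1.90-fold lower (log2 fold change -0.93, SE 0.14, adjusted p = 0.00403). Zfp52, at 21535539 to 21562601 on the same strand, had 38.5, 25.3 and 35.4 CPM in HA-NUR77 and 18.8, 16.6 and 18.7 CPM in GFP. It was 1.83-fold higher (log2 fold change 0.87, SE 0.16, adjusted p = 0.00885), the largest rise of any member. The groups did not overlap in either gene. The other 5 lower members of the cluster were Zfp160 (log2 fold change -0.68, adjusted p = 0.0329), Zfp947, Zfp994, Zfp944 and Zfp946, whose values lay between -0.72 and -0.56, and Zfp946 did not pass with the length and GC offset (adjusted p = 0.0651). The second cluster of chromosome 17, with 12 members, had none past the threshold in edgeR or DESeq2 and a median of -0.27, with 3 lower at an unadjusted p under 0.05, and 5 of its members were lower with the block.

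Chromosome 7 carried the most members, 76, and a smaller share of them passed. There, 5 were lower (6.58%) and 1 was higher, with a median of -0.14, while 9.55% of its other genes were lower with a median of 0.05. The lower count of these members was 13 with the block, 0 when GFP replicate 1 or HA-NUR77 replicate 1 was left out, 1 when HA-NUR77 replicate 2 was and 2 when GFP replicate 3 was. A cluster of 7 members at 6131491 to 7209998 had a positive median, 0.10, and held Zfp954, at 20.6, 18.6 and 19.4 CPM in HA-NUR77 and 13.0, 13.0 and 13.6 CPM in GFP. Zfp954 was 1.47-fold higher (log2 fold change 0.56, SE 0.08, adjusted p = 0.00396), with the groups well apart. The cluster at 41633203 to 43593235 had 6 members, 2 of them lower, Zfp141 among them at -0.58 (adjusted p = 0.0444), and a median of -0.47. Of the cluster of 14 members at 29768552 to 30169750, 2 were lower, one being Zfp146 at -0.35 (adjusted p = 0.0194).

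The 10 members of chromosome 18 included 5 lower ones, with a median of -0.36, on a chromosome where 20.9% of the other tested genes were lower and their median was -0.12. All 3 members of chromosome 1 were lower, where 20% of its other 751 tested genes were lower, with a median of -0.06. Chromosomes 3 and 12, with 4 members each, had none past the threshold in edgeR, with 0 and 1 at an unadjusted p under 0.05 and 0 and 1 called by DESeq2. On chromosome 9 a cluster of 6 members had 2 lower, Zfp426 among them at -0.44 (adjusted p = 0.0218). In all, 18 clusters held 154 members, of which 24 were lower and 2 higher (median -0.22). The 142 members outside clusters had 30 lower and 4 higher (median -0.19), so the lower calls were not limited to clusters. Joining at a distance of 0.5 or 2 Mb gave 14 and 17 clusters.

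**Figure D3:**
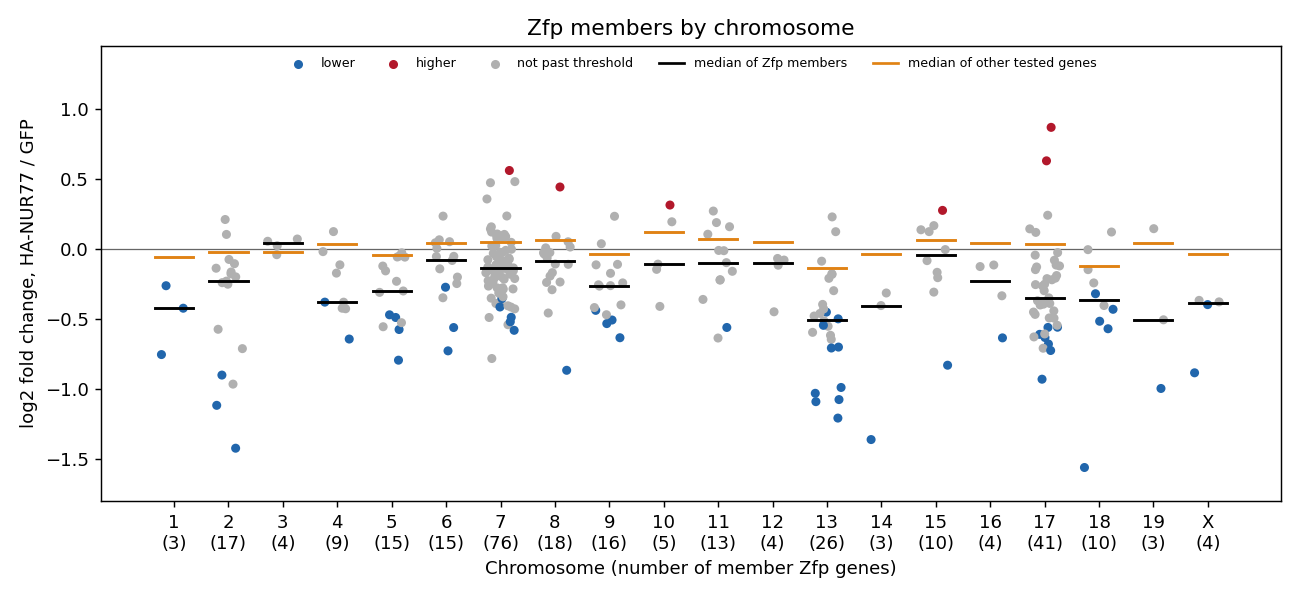
Log2 fold change of every member, HA-NUR77 over GFP, by chromosome, with 1 point per gene, a black line at the median of the members and an orange line at the median of the other tested genes of each chromosome. The 26 members of chromosome 13 have a median of -0.51, the 41 of chromosome 17 of -0.35 and the 76 of chromosome 7 of -0.14.

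The 3 largest falls, those of Zfp521, Zfp937 and Zfp503, lay outside all clusters. Zfp521, a cofactor that represses adipogenic and other differentiation programmes in mesenchymal cells, had 4.55, 5.90 and 3.88 CPM in HA-NUR77 and 13.0, 15.9 and 13.8 CPM in GFP. It was 2.95-fold lower (log2 fold change -1.56, SE 0.17, adjusted p = 0.00114), with every HA-NUR77 library far below every GFP library. Zfp937, on chromosome 2, had 2.22, 2.1 and 2.08 CPM in HA-NUR77 and 6.88, 4.05 and 6.23 CPM in GFP and was 2.68-fold lower (SE 0.23 on the log2 scale, adjusted p = 0.00515). Zfp442, also on chromosome 2, had 3.00, 2.14 and 3.45 CPM in HA-NUR77 and 7.18, 3.71 and 7.44 CPM in GFP (a log2 change of -1.12, adjusted p = 0.0336). In Zfp442 the GFP replicate 2 value was only just above the highest HA-NUR77 value.

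The NET family corepressors Zfp503 and Zfp703, relatives that act in development, moved apart. Zfp503 had 9.72, 12.5 and 8.26 CPM in HA-NUR77 and 30.4, 26.7 and 21.9 CPM in GFP and was 2.57-fold lower (log2 fold change -1.36, SE 0.18, adjusted p = 0.00252). Zfp703 had 35.7, 38.9 and 37.8 CPM in HA-NUR77 and 25.7, 31.3 and 25.7 CPM in GFP, a log2 fold change of 0.44 (SE 0.10, adjusted p = 0.0163). Neither gene's groups overlapped.

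Of the 5 tested mesenchymal and adipogenic regulators on the list, 3 were lower, Zfp521, Zfp516 and Zfp467, the last of which lay below 2 CPM and is no member. Zfp467 rests on 5 to 17 reads per library, did not pass in DESeq2 (adjusted p = 0.104) and passed in 2 of the 6 fits that left out 1 library. With the replicate block all 5 were lower. Zfp516, which promotes the brown fat programme, had 62.6, 64.8 and 56.9 CPM in HA-NUR77 and 94.5, 86.0 and 83.2 CPM in GFP (a log2 change of -0.52, SE 0.08, adjusted p = 0.00476). Zfp423, a preadipocyte regulator also below 2 CPM, had a value of -1.03 that did not pass (adjusted p = 0.0555) but did with the block (adjusted p = 0.00565). Of 4 tested imprinting and retroelement repressors, Zfp57 was lower, and with the block Zfp445 was too (adjusted p = 0.000725). Zfp57, which protects methylation at imprinted loci, had 8.95, 9.56 and 9.98 CPM in HA-NUR77 and 14.1, 15.2 and 12.7 CPM in GFP (a log2 change of -0.56, adjusted p = 0.0106). Its groups did not overlap, whereas Zfp809, a repressor of retroviral elements, had a value of -0.24 (adjusted p = 0.393) and Zfp445, another imprinting factor, one of -0.47 (adjusted p = 0.131). Zfp568, a KRAB repressor needed in the early embryo, had 0.10 (adjusted p = 0.592).

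Among 11 general promoter and chromatin factors, 4 were lower and none higher, also in DESeq2 and at an unadjusted p under 0.05, with a median of -0.18. Zfp451, a SUMO ligase, had 74.5, 60.7 and 69.0 CPM in HA-NUR77 and 119, 110 and 115 CPM in GFP, with no overlap (log2 fold change -0.75, SE 0.09, adjusted p = 0.00153). Zfp532 was lower by -0.57 (adjusted p = 0.00398), Zfp281 by -0.42 (adjusted p = 0.0131) and Zfp148, a GC-box binding factor, by -0.63 (adjusted p = 0.0179). Zfp143, the mouse counterpart of the promoter-binding factor ZNF143, had 20.9, 19.1 and 20.9 CPM in HA-NUR77 and 19, 20.8 and 20.03 CPM in GFP. Its groups overlapped (log2 fold change 0.03, SE 0.08, adjusted p = 0.840).

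The 9 genes for RNA, ribosome and spindle proteins had 1 higher and 1 lower, with a median of -0.10. Zfp622, a factor of ribosome assembly, was higher by 0.28 (adjusted p = 0.0327), at 83.7 to 93.9 CPM in HA-NUR77 and 70.5 to 77.9 CPM in GFP. Zfp638, which binds RNA, was lower by -0.73 (adjusted p = 0.0481) although its groups overlapped, and it did not pass with a length and GC offset (adjusted p = 0.0969) or with no filter (adjusted p = 0.153). Zfp36, which directs decay of AU-rich mRNAs, had -0.06 (adjusted p = 0.799). Per kilobase of exon, Zfp106, an RNA-binding protein of muscle and nerve, stood at 91.3 CPM, Zfp207, a spindle protein, at 31.7 and Zfp91, a ubiquitin ligase, at 27.7, where the median member had 2.74 and the median chromosome 13 member 1.63. These 3 most abundant members did not pass, with log2 fold changes of 0.10, -0.10 and 0.15 (adjusted p = 0.409, 0.300 and 0.180).

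Besides Zfp52, Zfp954, Zfp703 and Zfp622, the 6 higher members were Zfp318 and Zfp280b. Zfp318, a nuclear protein known for its part in IgD expression in B cells, had 92.3, 82.2 and 88.9 CPM in HA-NUR77 and 61.2, 53.2 and 55.8 CPM in GFP and was 1.55-fold higher (log2 fold change 0.63, SE 0.08, adjusted p = 0.00213). Zfp280b was higher by 0.31 (adjusted p = 0.0347). In all 6 every HA-NUR77 library lay above every GFP library, and 3 of the 6 passed in every fit that left out 1 library, against 15 of the 54 lower members. Zfp52, Zfp318 and Zfp954 were those 3, and the lower ones included Zfp521, Zfp937, Zfp503, Zfp458, Zfp53, Zfp451, Zfp532, Zfp516, Zfp57 and Zfp9. Other calls named here held in fewer of these fits, namely Zfp703, Zfp369 and Zfp281 in 5, Zfp148 and Zfp146 in 4, Zfp442, Zfp160, Zfp426 and Zfp280b in 2, and Zfp825, Zfp141, Zfp638 and Zfp622 in 1.

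**Figure D4:**
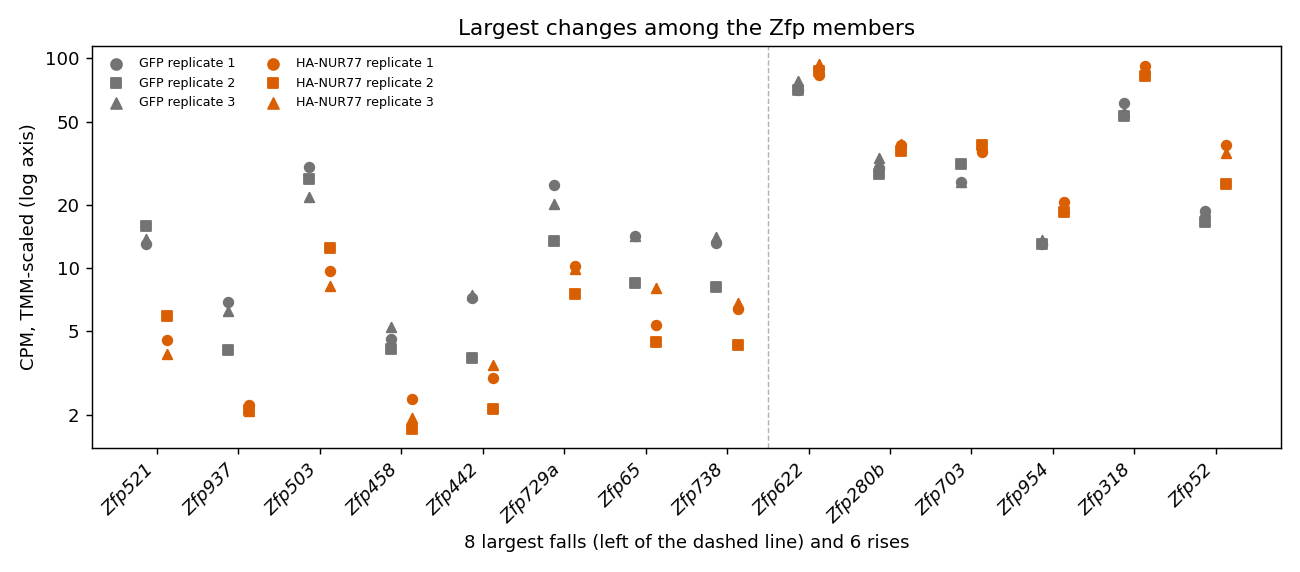
CPM (TMM-scaled, log axis) in each of the 6 libraries of the 8 members with the largest falls, left of the dashed line, and the 6 higher members, right of it. In Zfp521 the HA-NUR77 points sit at 3.88 to 5.90 CPM and the GFP points at 13.0 to 15.9 CPM, and in Zfp52 the order is reversed, at 25.3 to 38.5 and 16.6 to 18.8 CPM.

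Members differed by the domains that their coding sequences held. A KRAB-like stretch, at least 10 of 14 consensus letters within the first 200 residues, was found in 158 of the 294 members with a translated coding sequence. Of these 158, 32 were lower and 2 higher with a median log2 fold change of -0.29, and of the 136 without it 21 were lower and 4 higher with a median of -0.14. Without chromosome 13 the medians were -0.25 over 137 members and -0.13 over 131, while the shares called lower were 16.1% and 16%. The lower count of the KRAB-like members was 74 with the block and 7 without GFP replicate 1, and that of the rest was 44 and 8. No test of the difference between these groups was run.

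The number of C2H2 patterns (C, 2 to 4 residues, C, 12 residues, H, 3 to 5 residues, H) had a median of 10 over members and reached 36, and 7 members had none. Of the 61 members with at least 15 patterns, 17 were lower and none was higher, with a median of -0.32. At an unadjusted p under 0.05 and in DESeq2 none of the 61 was higher either, and without GFP replicate 1 only 4 were lower. Members with 10 to 14 patterns (103 genes) had a median of -0.26, those with 5 to 9 (84 genes) of -0.16 and those with up to 4 (46 genes) of -0.11. Spearman's rho between pattern number and log2 fold change across members was -0.30, a description over genes that share libraries. Base composition moved along with it, since rho between exon GC content and log2 fold change was 0.42 across members and 0.09 across all tested genes. The median exon GC content was 39.6% for chromosome 13 members, 44.3% for all members and 49.6% for all tested genes. With an offset for exon length and GC content, 48 members were lower and 7 higher, with a median of -0.16, where 12.0% and 13.3% of all genes were called. On chromosome 13, 8 were lower and none was higher in that fit, with a median of -0.45.

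**Figure D5:**
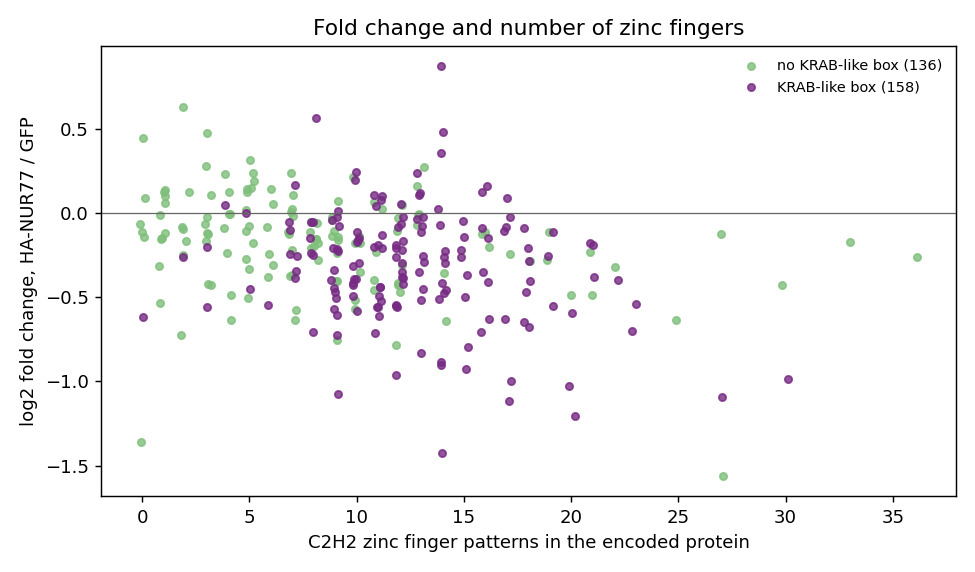
Log2 fold change of members against the number of C2H2 patterns in the translated coding sequence, with 158 members that have a KRAB-like stretch in purple and 136 that lack it in green. The median goes from -0.11 at up to 4 patterns to -0.32 at 15 or more.

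The start-site windows of 300 bases, 250 before and 50 after the start, were searched on both strands. TGGGANNTGTAGTC was built from the 14 windows of the chromosome 13 cluster, as the longest run common to all of them with at most 2 variable positions, so its presence in all 14 is given by that choice. Its letters are close to those of sites bound by ZNF143. It was found in 31 of 246 matched members (12.6%), 15 of them on chromosome 13, in 1.96% of matched tested genes and in 0.836% of all genes of the table, and in none of the 19 matched members of the large chromosome 17 cluster. Of 39 matched lower members 7 had it, as did 24 of 202 matched members that did not pass and none of 5 higher ones. Members off chromosome 13 with it had a median log2 fold change of -0.16 (16 genes) and those without it -0.19 (207 genes). AAAGGTCA, the NBRE to which NR4A receptors bind as monomers, was in none of the 246 members' windows and in 1.11% of matched tested genes. AAGATGGC, a core of YY1 sites, was in 16 of the 246 (6.50%) and in 5.46% of matched tested genes, and in 3 of the 39 lower members, Zfp451, Zfp292 and Zfp68. A match describes the letters of these windows only.

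Of 8 tested Zkscan genes 3 were lower (median -0.21), of 8 Zscan genes 2 (median -0.16), of 36 Zbtb genes 6 were lower (16.7%) and 2 higher (median -0.09), and of 12 Klf genes 3 were lower and 2 higher (median -0.01), against 13.2% lower and 12.4% higher over all genes. The Zbtb lower count was 13 with the block, 2 when GFP replicate 1 was left out, 3 when HA-NUR77 replicate 1 or 2 was and 4 with the length and GC offset. Of 35 tested genes for the KRAB repression machinery, 6 were lower and 1 higher, with a median of -0.08, and 14 were lower and 5 higher with the block. The lower count was 0 without GFP replicate 1, 2 without any one HA-NUR77 library and 4 with the length and GC offset, which called 4 higher. Trim28, the corepressor that KRAB boxes recruit, had 181 CPM in HA-NUR77 and 188 CPM in GFP (a log2 change of -0.05, adjusted p = 0.732). Setdb1 had 75.5 and 70.6 CPM (log2 fold change 0.10, adjusted p = 0.262). Atrx, a chromatin remodeller at repeats, was lower by -1.22 (adjusted p = 0.0131), at 78.7 CPM in HA-NUR77 and 182 CPM in GFP. Chd3 was lower by -0.32 (adjusted p = 0.0254) and Trim33 by -0.51 (adjusted p = 0.0263). The other lower genes were Fam208a at -0.78, Ehmt1 at -0.28 and Ehmt2 at -0.21 (adjusted p = 0.0304, 0.0398 and 0.0435). The 1 higher gene was Trim24, a relative of Trim28, at 0.40 (adjusted p = 0.0307). Of the 6 fits that left out 1 library, Atrx passed in 5, Trim33 in 4 and Fam208a in 2. Chd3, Ehmt1 and Trim24 passed in 1 each. Ehmt2 passed in none, with a smallest adjusted p of 0.0503. With the length and GC offset Chd3, Ehmt1 and Ehmt2 did not pass. Atrx did not pass with no filter on low counts (adjusted p = 0.0657).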

How the data were processed

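Polyadenylated RNA of 6 libraries, 3 HA-NUR77 and 3 GFP, was profiled. The authors deposited whole-number read counts per gene, 1 table per library. Per the submitters' processing notes, TopHat2 2.1, HTSeq, DESeq2 and build mm10 were used; strand setting and annotation release are not given in the sources used here. Sample titles and the genetic modification labels set the groups, although the growth text of the GFP samples names the HA-NUR77 line.

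Gene IDs were matched to GENCODE M21. Counts were fitted with edgeR 4.0.16 in R 4.3.3 (TMM factors, filterByExpr with minimum count 10, robust quasi-likelihood test, group only). The fit was run on simulated data first. Those counts were drawn independently for each library, so that run does not cover effects shared by same-numbered libraries. Adjusted p-values are Benjamini-Hochberg over all genes tested. Membership used raw CPM, and printed levels are TMM-scaled CPM. Members and lists were chosen with earlier results of these data known. Genes were named as the largest changes without overlap, chromosome 13 calls, the smallest p per cluster, the highest levels and role group calls; others named were chosen after their values were seen. C2H2 and KRAB-like counts come from the longest translated GENCODE coding sequence. Windows were aligned with Biopython 1.88. Alternatives were DESeq2 1.42.0, other scaling and filters, a length and GC offset (mgcv 1.9.3), the replicate block and leaving out each library. No label says that replicate numbers mark a shared day. Deviations of same-numbered libraries from their group means correlated at 0.25, 0.55 and 0.47 across 12509 genes. All were over 0.1, the limit set beforehand for pairing. The main fit and the fits that left out 1 library nevertheless used group only and ignored this pairing. Only the fits with the replicate block used it.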

Additional observations from a re-analysis of the deposited data

How the results depend on the processing

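With the replicate block, 2942 genes were higher and 3071 lower, of them 11 and 119 members and, on chromosome 13, 1 and 17 members. With the block and the length and GC offset together, the counts were 3258 and 2696 for all genes and 17 and 90 for members. On chromosome 13 they were 1 higher and 14 lower members. Leaving out each library in turn gave 642 to 1489 higher and 850 to 1572 lower genes, 3 to 7 higher and 16 to 55 lower members, and 0 to 1 higher and 1 to 7 lower members on chromosome 13. The medians then ranged from -0.25 to -0.17 for members and from -0.63 to -0.37 for chromosome 13. Leaving out a library leaves fewer samples to test with. The block changed no call of the 54 lower and 6 higher members to not passing. Of those, 42 and 6 passed with the length and GC offset. DESeq2, library totals, upper-quartile factors, a minimum count of 30, no filter, and member thresholds of 1 or 5 CPM kept every count within 1.5 times. Members at 2 CPM or more in both groups, an alternative chosen after seeing the data, had 53 lower and 6 higher.

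Over 51 named genes and 14 settings, 597 values kept direction and side of the threshold, 97 lost and 12 gained the threshold, and 8 changed sign. Those 8 were of genes that did not pass. With the length and GC offset, without and with the block, Zfp207 had 0.0161 and 0.0137, Zfp869 -0.0606 and -0.0611, and Trim28 0.0288 and 0.0294. Leaving out each library in turn, Trim28 ranged from -0.1299 to 0.0101 and Nr4a1 from -0.0823 to 0.4375, with the sign change without GFP replicate 2 in both. The cause was not tested. Members near 2 CPM rest on few reads, 26 to 43 per library for Zfp953, so small differences were not detectable there.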
